A study of Homo sapiens with 4 samples.

Results

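The genes that encode the translation initiation, elongation and termination factors, together with TPT1, were followed in Pol II chromatin immunoprecipitation followed by sequencing (ChIP-seq) of SK-OV-3 cells, an established epithelial ovarian cancer line. The 48 genes were taken by name, with no threshold on their peaks, from the 20033 protein-coding genes of GENCODE on chromosomes 1 to 22, X and Y. The control cells carried shLacZ, a short hairpin RNA against a bacterial gene, and the knockdown cells carried shRRN3, a hairpin against RRN3, which RNA polymerase I needs to start making ribosomal RNA. The labels list 4 samples, 1 Pol II and 1 input library per hairpin, and the 2 Pol II peak lists were analysed here. The comparison bears on the question whether RRN3 changes where Pol II lies along genes, at their ends above all. Each hairpin had 1 library and so no replicate error, no p-value is given, and every difference below is one between these libraries.

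Translation begins when eIF2 brings the initiator tRNA to the small ribosomal subunit, eIF3 holds the initiation complex together, and the eIF4 factors bind the cap of the mRNA and unwind its leader. The eEF1 and eEF2 factors then drive elongation, and ETF1 with GSPT1 ends it at the stop codon. Many of the mRNAs for elongation factors and for TPT1, a small growth-related protein, begin with a stretch of pyrimidines called a 5′ terminal oligopyrimidine (5′ TOP) motif, by which mTOR signalling controls their translation.

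The shLacZ list held 3920 peaks on the chromosomes used and the shRRN3 list held 14322, so a gene had more chances of a peak in shRRN3, and sequencing depth is unknown from a peak list. Scores were taken to be 10 times −log10 of the peak p-value, began at 50.03 in shLacZ and 50 in shRRN3, and were ranked only within a list because they depend on depth. RRN3 itself carried no peak in either list, and the lists do not check the knockdown. Among the epithelial markers, KRT8 and KRT18 shared a start peak of score 120.86 and EPCAM had one of 62.98, and KRT7 had a body peak of 74.51, all in shRRN3 alone, and ERBB2 and CDH1 had no peak in either list. Of the markers of other cells, PTPRC and ALB had none and PECAM1 had 1 body peak of score 51.8 in shRRN3.

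The promoters of 7 of the genes are shown because Pol II peaks lay on or beside them in at least 1 list, and because they show which transcripts begin with a pyrimidine run. Each runs from 200 bases before the first transcribed base to 30 bases from it, 5′ to 3′ on the gene's strand, from RefSeq on build GRCh38.p14. Capitals mark the unbroken run of C and T that begins at the first transcribed base, or that base alone where it is not C.
TPT1 (chr13:45341154-45341383, minus strand): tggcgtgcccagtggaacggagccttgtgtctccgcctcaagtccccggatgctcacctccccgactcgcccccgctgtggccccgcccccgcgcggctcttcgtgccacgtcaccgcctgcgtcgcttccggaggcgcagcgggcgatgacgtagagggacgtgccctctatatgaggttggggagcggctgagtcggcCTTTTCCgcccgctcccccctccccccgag
EEF1A1 (chr6:73521003-73521232, minus strand): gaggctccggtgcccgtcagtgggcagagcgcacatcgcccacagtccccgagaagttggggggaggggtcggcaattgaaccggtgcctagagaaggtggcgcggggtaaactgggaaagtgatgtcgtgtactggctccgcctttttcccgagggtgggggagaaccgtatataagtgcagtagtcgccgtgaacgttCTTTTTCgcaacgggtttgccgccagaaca
EEF2 (chr19:3985434-3985663, minus strand): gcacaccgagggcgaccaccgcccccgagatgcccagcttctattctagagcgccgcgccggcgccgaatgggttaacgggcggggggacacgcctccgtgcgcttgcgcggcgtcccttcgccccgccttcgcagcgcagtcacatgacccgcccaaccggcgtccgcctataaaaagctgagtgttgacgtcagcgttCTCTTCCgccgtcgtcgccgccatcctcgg
EIF1 (chr17:41688685-41688914, plus strand): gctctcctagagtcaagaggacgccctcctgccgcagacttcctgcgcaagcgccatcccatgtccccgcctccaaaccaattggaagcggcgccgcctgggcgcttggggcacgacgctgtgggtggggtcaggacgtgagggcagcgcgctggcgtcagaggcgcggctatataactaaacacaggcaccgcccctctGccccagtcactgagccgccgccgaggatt
EIF3D (chr22:36529137-36529366, minus strand): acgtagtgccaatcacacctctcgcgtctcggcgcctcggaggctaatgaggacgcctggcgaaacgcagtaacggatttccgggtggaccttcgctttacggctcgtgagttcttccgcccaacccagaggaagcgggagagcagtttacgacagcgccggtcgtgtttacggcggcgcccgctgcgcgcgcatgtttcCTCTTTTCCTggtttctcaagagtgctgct
EIF4A2 (chr3:186783377-186783606, plus strand): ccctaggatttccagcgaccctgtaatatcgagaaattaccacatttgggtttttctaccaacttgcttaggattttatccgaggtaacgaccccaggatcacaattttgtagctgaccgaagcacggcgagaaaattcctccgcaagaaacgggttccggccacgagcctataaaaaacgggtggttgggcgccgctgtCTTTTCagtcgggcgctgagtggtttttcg
EIF4G2 (chr11:10808897-10809126, minus strand): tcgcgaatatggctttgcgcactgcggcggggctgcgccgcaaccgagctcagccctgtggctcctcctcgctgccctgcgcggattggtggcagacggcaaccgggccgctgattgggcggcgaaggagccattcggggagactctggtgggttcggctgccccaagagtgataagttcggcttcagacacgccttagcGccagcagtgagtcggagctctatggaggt

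The TPT1, EEF1A1 and EEF2 transcripts each began with a run of 7 pyrimidines, EIF4A2 with 6 and EIF3D with 10, whereas EIF1 and EIF4G2 began with G. RefSeq held a promoter at the canonical start of 39 of the 48 genes, and 11 of these (28.2%) began with C in a run of at least 5 pyrimidines, against 4.58% of 21613 promoters of protein-coding genes. The 11 were TPT1, EEF1A1, EEF1B2, EEF2, EIF2S3, EIF3D, EIF3F, EIF3K, EIF3M, EIF4A2 and EIF4B. Motifs were searched on both strands of the whole promoter, 250 bases before the start and 50 after it. GGGCGG, the GC box, was in 31 of 39 (79.5%, against 56.8% of all promoters), CCGGAA, a core of ETS factor sites, in 19 (48.7%, against 21.3%), CCAAT in 16 (41.0%, against 34.9%), CACGTG, the E-box, in 9 (23.1%, against 8.35%) and TATAAA in 2 (5.13%, against 9.45%). The 2 genes with TATAAA were EEF2 and EIF4A2. The median GC content was 64.3% for these genes and 62.3% for all promoters.

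A start peak had its midpoint within 1 kb of the 5′ bound of the annotated gene, a body peak had it inside the gene and farther from that bound, and a past-end peak had it within 10 kb past the 3′ bound, in a window that stopped 1 kb before the next start of a protein-coding gene. In shLacZ 10 of the 48 genes had a start peak (20.8%, 95% exact Clopper-Pearson interval 10.5% to 35.0%), against 7.56% of all protein-coding genes. In shRRN3 31 had one (64.6%, 49.5% to 77.8%), against 23.7% of all. Body peaks were found in 6 genes (12.5%, 4.73% to 25.2%) in shLacZ, against 5.76% of all genes. In shRRN3 they were found in 14 (29.2%, 17.0% to 44.1%), against 18.1%. For body peaks the interval took in the share of all genes in both lists. Past-end peaks were found in 5 genes (10.4%, 3.47% to 22.7%) in shLacZ, against 1.6%, and in 10 (20.8%, 10.5% to 35.0%) in shRRN3, against 5.84%. A peak in any of these places was listed for 14 genes in shLacZ (29.2%, against 13.3% of all genes) and for 38 in shRRN3 (79.2%, against 36.6%). The intervals cover counting error only.

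**Figure D1:**
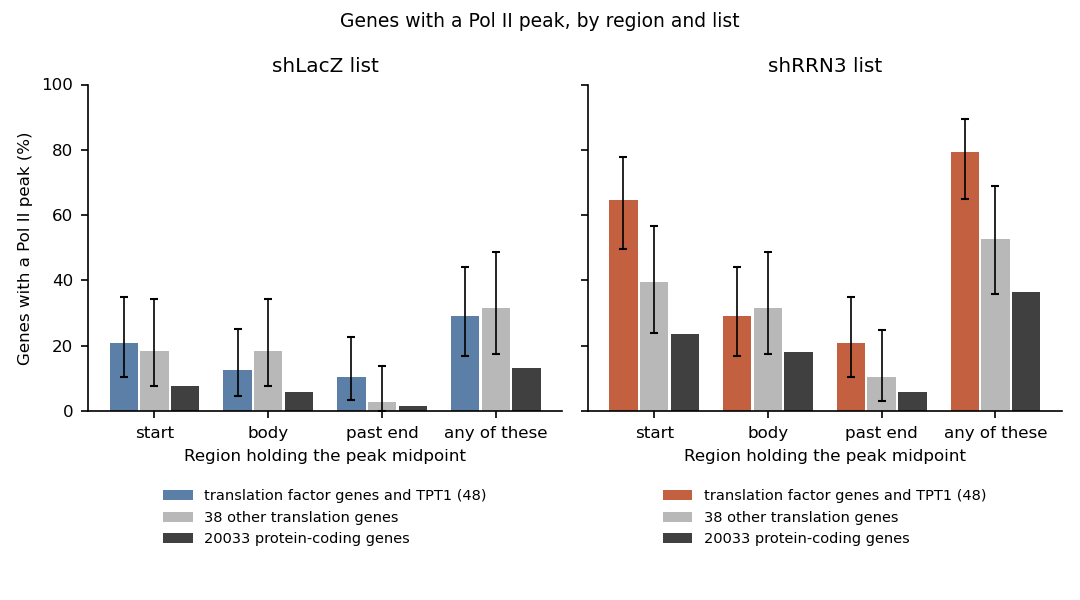
The share of genes with a Pol II peak (y axis, percent) is drawn for the start, the body, the window past the end and any of these (x axis), with the shLacZ list on the left and the shRRN3 list on the right. Coloured bars are the 48 genes, light bars 38 other translation genes and dark bars all 20033 protein-coding genes, and error bars are exact 95% binomial intervals; the coloured start bars stand at 20.8% and 64.6% over dark bars of 7.56% and 23.7%.

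The size of the shRRN3 counts depended on the length of that list. When only its 3920 highest-scoring peaks were kept, as many as shLacZ had, 14 of the 48 genes (29.2%) had a start peak and 9.74% of all genes did. Body peaks then remained in 8 genes (16.7%, against 6.0% of all genes), past-end peaks in 7 (14.6%, against 1.87%) and any peak in 22 (45.8%, against 15.4%). Counted at any annotated transcript start of a gene, 12 genes had a start peak in shLacZ (25%, against 9.28% of all genes) and 35 in shRRN3 (72.9%, against 28.2%).

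The 48 genes carried 38 peaks in shLacZ and 81 in shRRN3, which was 2.13 times as many, where the whole lists differed 3.65 times. Their peaks covered 22307 bases in shLacZ and 69644 in shRRN3, a ratio of 3.12, against 4.8 for the whole lists. Among the 38 shLacZ peaks 35 (92.1%) met a peak of the shRRN3 list, against 66.2% of the whole list, and the 3 others lay at EIF4A2, EIF4G3 and EIF5. Among the 81 shRRN3 peaks 21 (25.9%) met a shLacZ peak, against 16.9% of the whole list. All 14 genes with a peak in shLacZ also had one in shRRN3, where 36.6% of all protein-coding genes did. How often this held for all genes with a shLacZ peak was not counted, so it is not read as particular to these genes. In shRRN3 5 of the genes (TPT1, EEF1A1, EIF1, EIF4A2 and EIF4G2) held 7 of the 144 peaks that make up the top 1% by score, and in shLacZ none of their peaks was among the top 40, though the EEF1A1 peak at its canonical start missed them by 1 place, at rank 41.

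**Figure D2:**
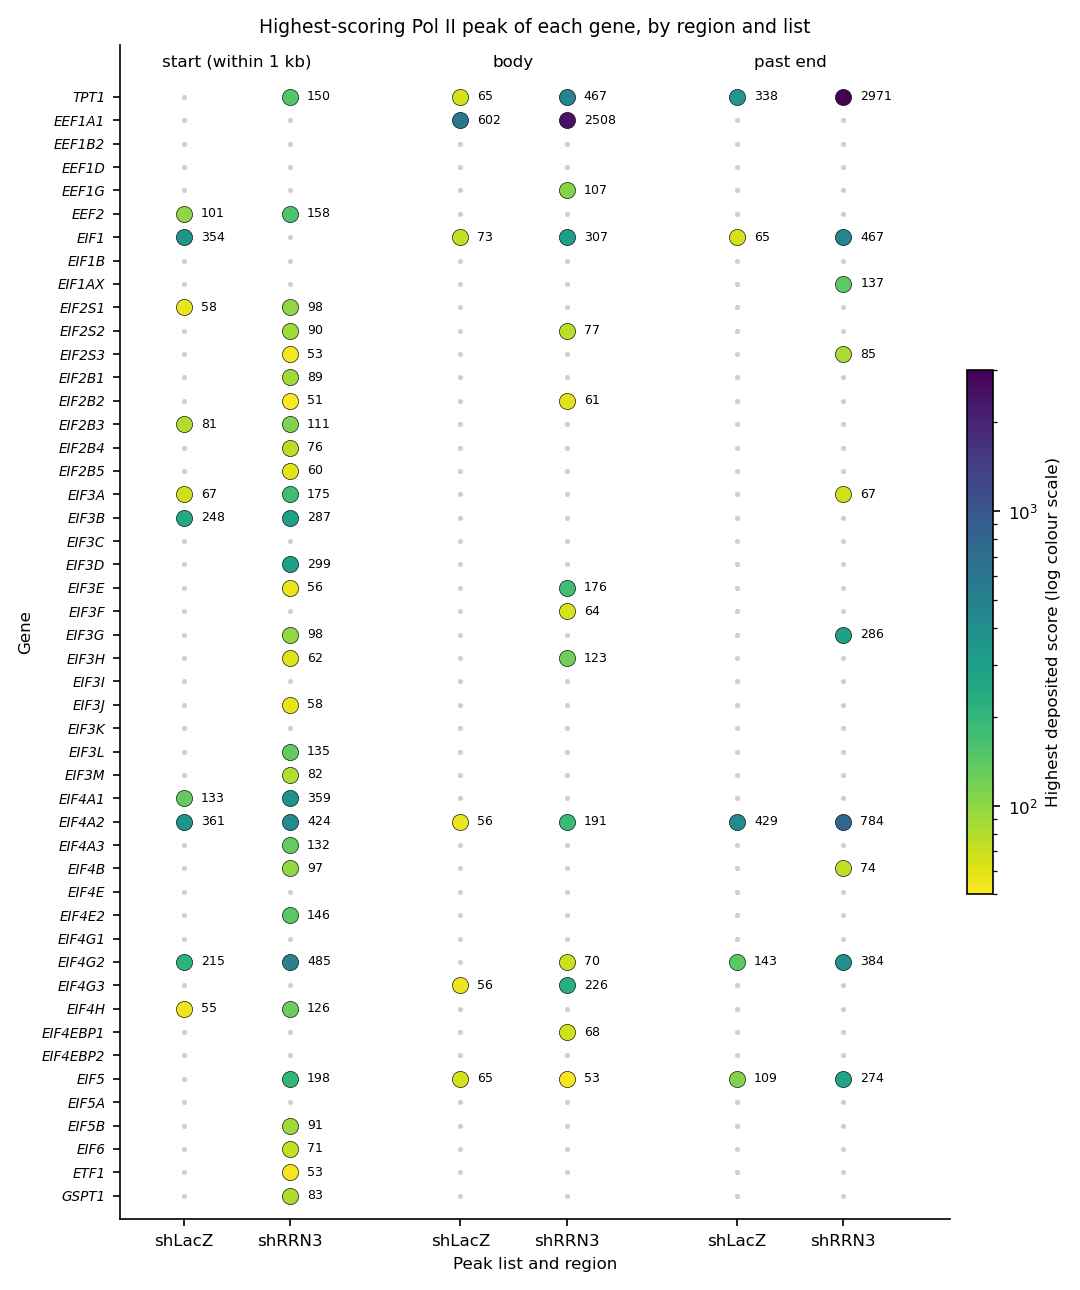
Each row is 1 of the 48 genes and each column 1 peak list and region; a coloured point gives the highest deposited score there on a log colour scale with its rounded value, and a small grey dot means no peak. The shRRN3 start column is filled for 31 genes and the shLacZ start column for 10, and the darkest points are TPT1 past its end (2971) and EEF1A1 in its body (2508) in shRRN3.

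TPT1 had the highest-scoring peak of the 48 genes. The gene lies at chr13:45333471-45341284 on the minus strand, and its span also holds SNORA31 and SNORA31B, both small nucleolar RNAs. In shLacZ no peak lay at its start, 2 lay in the last 1 kb of its body (scores 50.52 and 65.08), and 6 lay past its end with midpoints from 167 to 7552 bp beyond it. Their scores were 144.56, 92.99, 100.67, 338.42, 235.27 and 85.21 in order of distance, so the highest was centred 2065 bp past the end. In shRRN3 a start peak of score 149.95 appeared, which also lay over the start of the antisense gene TPT1-AS1 on the other strand, and ChIP does not tell the strands apart. The body held 3 shRRN3 peaks of scores 80.97, 52.51 and 467.26. A 4764 bp peak of score 2971.15, ranked 5 of the 14322, ran from the last part of the gene to beyond its end with its midpoint 1494 bp past it, and it overlapped 7 of the shLacZ peaks. A further 3 shRRN3 peaks of scores 112.45, 283.53 and 285.56 were centred 4643, 5907 and 7974 bp past the end. Peaks covered 3863 bases of the 10 kb past TPT1 in shLacZ and 7094 in shRRN3.

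EEF1A1, which delivers aminoacyl-tRNA to the ribosome, was the other of the 48 genes with a peak among the 10 highest of the shRRN3 list. Its annotated span, chr6:73489308-73525587 on the minus strand, is 36280 bp long because of long annotated transcripts, while the canonical transcript covers 5283 bp and starts 4555 bp inside the 5′ bound. By the annotated bounds EEF1A1 therefore had body peaks only. At the canonical start shLacZ had a peak of score 601.51 (1756 bp) and shRRN3 one of score 863.83 (2315 bp). Around the canonical end shLacZ had 5 peaks of scores 474.29, 68.7, 169.97, 150.16 and 189.16. In shRRN3 a 4117 bp peak of score 2508.5, ranked 8, was centred 395 bp past the canonical end and overlapped all 5. The shRRN3 list also held body peaks of 141.25 and 78.98, and 1 of 120.98 beside the start of the antisense gene EEF1A1-AS1.

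The remaining elongation factors had few peaks. EEF2, the GTPase that moves the ribosome along by a codon, had a start peak of score 100.9 in shLacZ and peaks of 158.03 and 50.42 in shRRN3. EEF1G, a subunit of the exchange factor that recharges eEF1A, had no peak in shLacZ and a body peak of 106.51 in shRRN3, centred 13395 bp from its start and inside a longer annotated transcript unit that shares its strand. EEF1B2 and EEF1D, the other exchange factor subunits, and EIF5A, which helps the ribosome through stretches that are hard to translate, had no peak in either list. Start peaks were thus listed for 1 of the 6 elongation genes in each list, beside 7.56% and 23.7% of all genes. Any peak was listed for 2 in shLacZ and 3 in shRRN3, beside 13.3% and 36.6%. At any annotated start, which takes in EEF1A1, 2 of the 6 had a peak in each list, beside 9.28% and 28.2%.

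Of the 4 factors that choose the start codon, EIF1 and EIF5 had peaks in both lists. EIF1, which keeps scanning ribosomes from settling on wrong codons, had a shLacZ start peak of score 353.65 (1099 bp), a body peak of 73.43 and a past-end peak of 65.0. In shRRN3 a 3702 bp peak of score 306.72 covered the start and most of the 3784 bp gene, and since its midpoint lay 1341 bp inside, it counted as a body peak. EIF1 was for this reason the only gene with a start peak in shLacZ alone, and with any overlap of the start window counted there was none. The shRRN3 past-end peak of EIF1 scored 466.81 and was centred 659 bp past the end. EIF5, which triggers GTP hydrolysis on eIF2, had a start peak of 198.38 in shRRN3 only, within 1 kb of another protein-coding start. Its past-end peaks were 109.16 in shLacZ and 274.36 and 50.61 in shRRN3. EIF1AX, a partner of EIF1 in scanning, had a single past-end peak of 137.45 in shRRN3, 1597 bp beyond its end, with no peak at its start in either list, and EIF1B had no peak.

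All 3 eIF2 subunits and all 5 eIF2B subunits had a start peak in shRRN3, where 23.7% of all protein-coding genes did, and 1 of each had one in shLacZ, where 7.56% did. EIF2S1, the alpha subunit that stress kinases phosphorylate, scored 57.74 in shLacZ and 98.11 in shRRN3, in a window shared with the start of ATP6V1D. EIF2S2 had 89.93 and EIF2S3 52.86, in shRRN3 only. EIF2B3, a subunit of the exchange factor that recharges eIF2, scored 81.01 in shLacZ and 110.82 in shRRN3. The other eIF2B subunits had start peaks in shRRN3 only, of 89.02 at EIF2B1, 51.37 at EIF2B2, 76.09 at EIF2B4 and 59.6 at EIF2B5. The EIF2B1 peak was also within 1 kb of the start of GTF2H3 and that of EIF2B4 within 1 kb of the start of SNX17. With the shRRN3 list reduced to the length of the shLacZ list, EIF2B3 was the only one of these 8 genes left with a start peak.

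The eIF3 complex, a scaffold of 13 genes here, had start peaks at 2 genes in shLacZ and 9 in shRRN3, beside 7.56% and 23.7% of all genes. EIF3A, its largest subunit, scored 67 in shLacZ and 175.34 in shRRN3. The shLacZ peak lay upstream of the start without covering it. Both midpoints lay inside a long noncoding RNA gene on the opposite strand that also starts within 1 kb. EIF3B scored 247.94 and 287.04, in a window shared with the start of SNX8. EIF3D, a subunit that can bind the mRNA cap, had the highest shRRN3-only start peak of the 48 genes, at 299.27 and 1948 bp wide. The others found in shRRN3 only were EIF3E (56.5), EIF3G (97.81), EIF3H (61.87), EIF3J (58.03 and 53.18), EIF3L (134.71, near the start of ANKRD54) and EIF3M (81.66). For EIF3E and EIF3H the peak at the 5′ bound lay at the starts of the neighbours EMC2 and UTP23, and separate shRRN3 peaks of 175.52 and 122.53 lay at their own canonical starts. EIF3F had none at its bound but a shRRN3 peak of 64.08 at its canonical start. EIF3C, EIF3I and EIF3K had no peak in either list; EIF3C has a near-identical copy, EIF3CL, which had none either, and reads that fit both copies may have been dropped or split.

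The 10 eIF4 genes had start peaks at 4 in shLacZ and 7 in shRRN3, beside the same 7.56% and 23.7%. EIF4A1, the main helicase of the cap-binding complex, scored 132.6 and 359.23, and its start peaks also lay inside the readthrough gene SENP3-EIF4A1. It had no past-end window, since CD68 starts less than 1 kb past its end. EIF4A2, its close relative, had start peaks of 361.05 and 55.36 in shLacZ and 1 peak of 423.75 and 2522 bp in shRRN3. EIF4A2 hosts 5 small nucleolar RNAs, and 2 shLacZ peaks (52.05 and 50.72) and 2 shRRN3 peaks (118.01 and 121.73) lay within 1 kb of the starts of SNORA63 and SNORA4 in its body. EIF4G2, a scaffold that lacks the eIF4E-binding part of its relatives, scored 215.25 in shLacZ, and 484.95 and 86.77 in shRRN3. EIF4H, a helicase cofactor, scored 55.09 and 126.17. EIF4A3, the helicase of the exon junction complex (131.83), EIF4B, another helicase cofactor (96.98), and EIF4E2, a relative of the cap-binding protein (145.96, near the start of TIGD1), had start peaks in shRRN3 only. EIF4G3 had body peaks only, 55.82 in shLacZ and 226.31 and 51.12 in shRRN3. EIF4E, the cap-binding protein itself, and EIF4G1, its main scaffold, had no peak in either list. Of the 2 inhibitors that hold eIF4E, EIF4EBP1 had a body peak of 67.56 in shRRN3 and EIF4EBP2 had none.

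The factors of subunit joining and of termination had start peaks in shRRN3, where 23.7% of all genes did, and none in shLacZ, where 7.56% did. These were 90.93 at EIF5B, which joins the ribosomal subunits, and 71.28 at EIF6, which holds the large subunit apart until it is mature. ETF1, which reads stop codons, had 53.15, and GSPT1, its GTPase partner, had 82.88 and 69.84. The midpoint at EIF5B lay inside TXNDC9 on the opposite strand. None of these genes kept a start peak with the shRRN3 list reduced. Across all roles 9 genes had a start peak in both lists, 1 in shLacZ only (2.08%, against 1.15% of all genes) and 22 in shRRN3 only (45.8%, against 17.3%). With the shRRN3 list reduced, 6 remained in shRRN3 only and EIF2S1 joined EIF1 in shLacZ only. The matching shares of all genes were not counted with the reduced list, so nothing is read from these counts. The 9 shared genes all stood at a higher percentile of scores in the shRRN3 list than in the shLacZ list, as did 75.9% of the 1284 protein-coding genes with a start peak in both lists. The lists differ in length and in median score, 65.58 in shLacZ and 74.65 in shRRN3, and such percentiles depend on the make-up of each list. Nothing is therefore read from this about the genes.

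Since the study asked about the ends of transcription, the ends are shown for the 6 genes with peaks past the canonical end in both lists. Each line gives 30 bases at the 3′ end of the canonical transcript, with the polyadenylation signal AATAAA in capitals. The TPT1 line was moved upstream to hold the signal and stops short of the transcript end at 45333471.
TPT1 (chr13:45333479-45333508, minus strand): agcAATAAAtctcaaccaacttgagagaac
EEF1A1 (chr6:73515750-73515779, minus strand): tcactacAATAAAtgaattttaagctttaa
EIF1 (chr17:41692639-41692668, plus strand): cacgaactAATAAAttttgctaaaacatga
EIF4A2 (chr3:186789868-186789897, plus strand): atgttaAATAAAttgtatattcactttaaa
EIF4G2 (chr11:10797054-10797083, minus strand): gtatctatcAATAAAcattgtgatacttga
EIF5 (chr14:103344996-103345025, plus strand): tttAATAAAgtgtgaaagttgtcaatcaaa

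Each of the 6 carried AATAAA, from 15 bases (EIF4G2) to 29 bases (TPT1) before the annotated end. AATAAA was found in the last 50 bases of 32 of the 48 canonical transcripts (66.7%) and of 63.5% of the 20033, and ATTAAA, where AATAAA was lacking, in 8 (16.7%) and 13.9%.

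**Figure D3:**
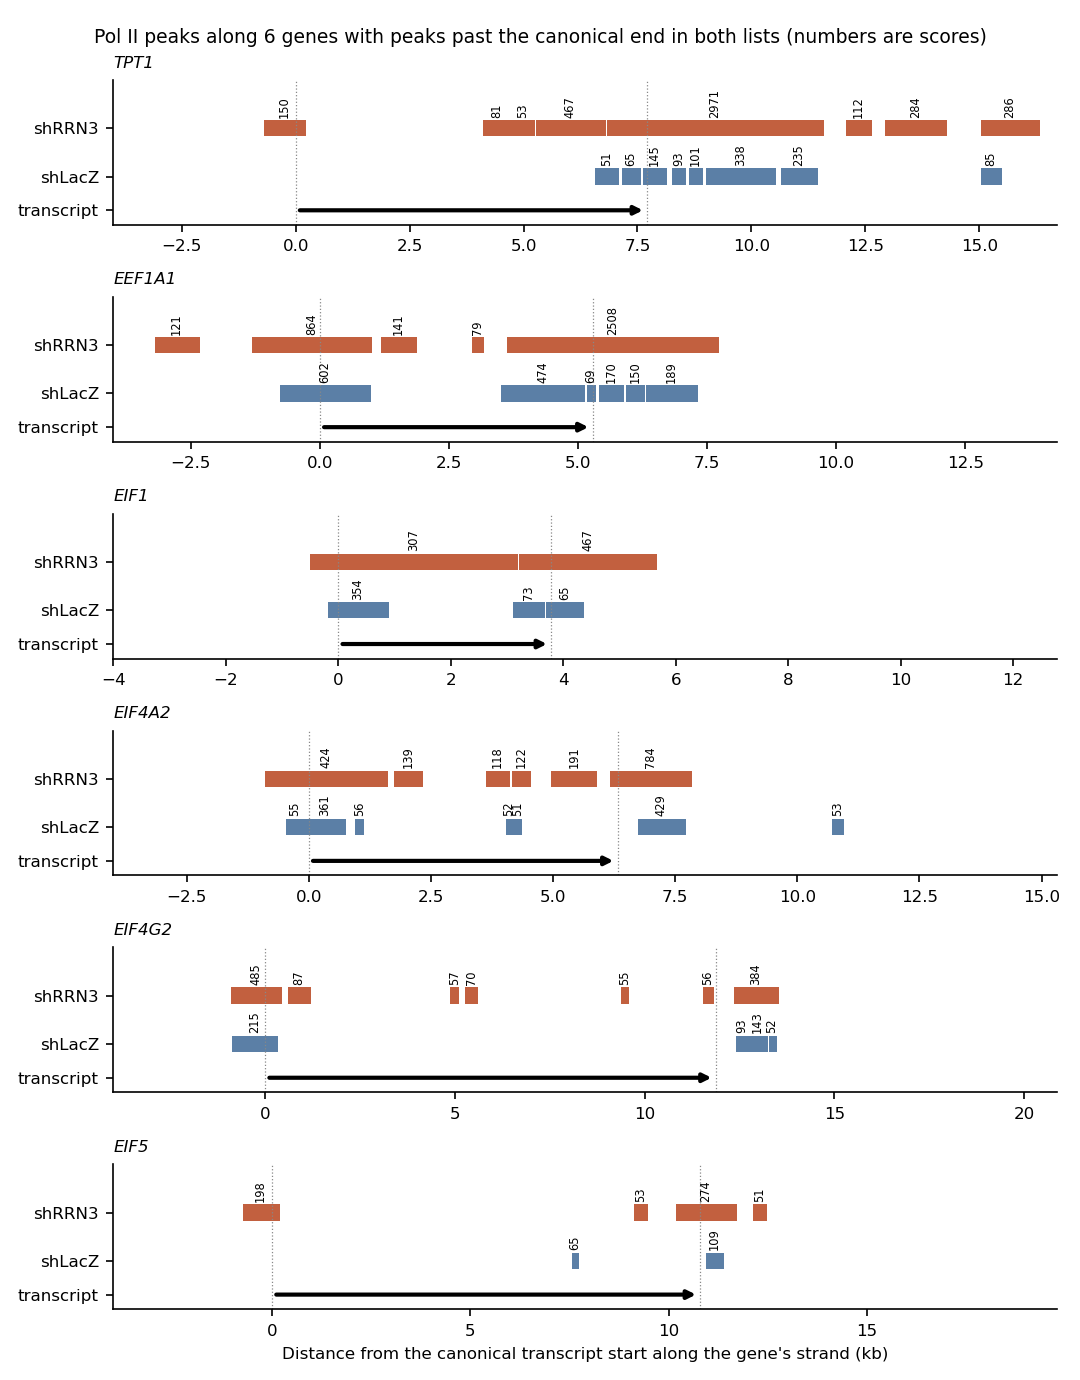
Horizontal bars are Pol II peaks drawn to scale, with their rounded scores, in shRRN3 (upper track) and shLacZ (middle track) along 6 genes; the x axis is the distance in kb from the canonical transcript start and the arrow is the canonical transcript, between dotted lines. For TPT1 and EEF1A1 a single wide shRRN3 peak (2971 and 2508) lies across the end where shLacZ has several narrow ones.

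The 5 genes with past-end peaks by the annotated bounds in shLacZ were TPT1, EIF1, EIF4A2, EIF4G2 and EIF5, and all 5 had them in shRRN3. EIF4A2 had shLacZ peaks of 429.16 and 52.95, centred 905 and 4509 bp past its end, and a shRRN3 peak of 783.69 at 681 bp. EIF4G2 had 3 shLacZ peaks of 92.53, 143.45 and 51.69 between 688 and 1494 bp, and in shRRN3 a peak of 384.42 at 1072 bp that overlapped all 3. Another 5 genes had past-end peaks in shRRN3 only. EIF3G had peaks of 111.52 and 286.37, EIF2S3 had 85.34 and 50.8, EIF4B had 73.9, EIF3A had 67.35, and EIF1AX had the peak given above. Measured from canonical ends, EEF1A1 joined both sets, which made 6 genes in shLacZ (12.5%, against 1.73% of all genes) and 11 in shRRN3 (22.9%, against 6.17%). Of the 5 genes with past-end peaks in both lists, TPT1 is described above. The bases covered by peaks in the window of the others were 580 in shLacZ and 1880 in shRRN3 at EIF1, 449 and 1282 at EIF5, 1218 and 1520 at EIF4A2, and 1033 and 1202 at EIF4G2, where the whole shRRN3 list covered 4.8 times as many bases as the shLacZ list.

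Several of these windows hold other genes. The midpoints at EIF4A2 lay inside RFC4, those at EIF4G2 inside CTR9, those at EIF3G inside P2RY11 and that at EIF3A inside NANOS1, each on the opposite strand, so the Pol II counted there cannot be assigned to 1 gene. Without midpoints inside other protein-coding genes, 3 genes (TPT1, EIF1 and EIF5) remained in shLacZ (6.25%, against 0.953% of all genes) and 6 in shRRN3 (12.5%, against 3.69%), the same 3 with EIF1AX, EIF2S3 and EIF4B.

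**Figure D4:**
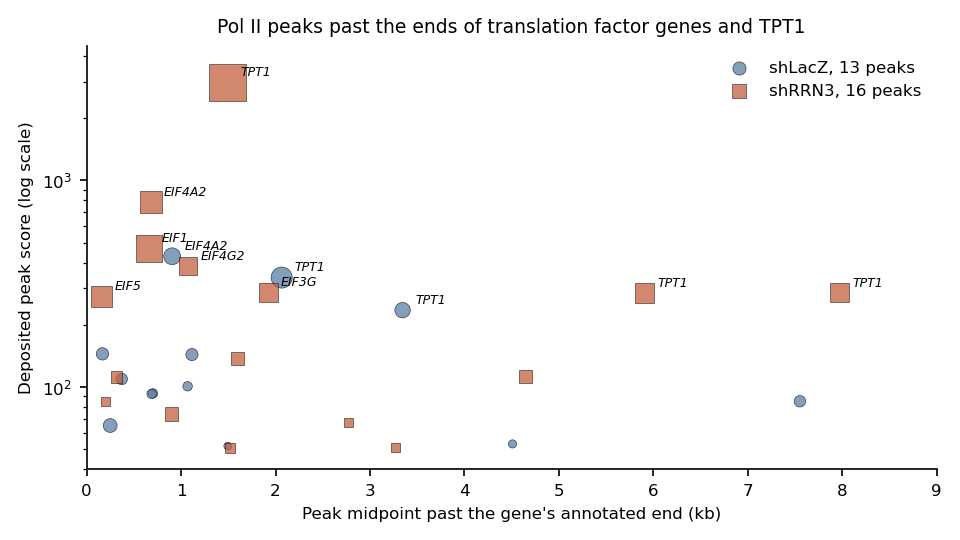
Each point is a Pol II peak with its midpoint past the annotated end of 1 of the 48 genes, 13 in shLacZ (circles) and 16 in shRRN3 (squares); the x axis is the distance past the end in kb, the y axis the deposited score on a log scale, and the point's area grows with peak width. Genes are named at scores above 200; the TPT1 peak of 2971 stands apart, and TPT1 alone has peaks more than 5 kb out.

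Among genes that had a start peak, a past-end peak accompanied it in 3 of 10 in shLacZ (30%, interval 6.67% to 65.2%), against 4.69% of all genes with a start peak. In shRRN3 it did so in 8 of 31 (25.8%, 11.9% to 44.6%), against 11.8%. Within a list the scores at both ends of a gene can be ranked. The past-end peak scored above the start peak in 1 of the 3 genes in shLacZ, EIF4A2, against 26.8% of the 71 protein-coding genes with both. In shRRN3 it did so in 5 of the 8 (TPT1, EIF2S3, EIF3G, EIF4A2 and EIF5), against 37.5% of 560. The 3 that scored higher at the start were EIF3A, EIF4B and EIF4G2. The past-end peaks of the 48 genes had a median score of 205.9 in shRRN3, at the 90.9 percentile of the list, and 100.67 in shLacZ, at the 80.2 percentile. Start peaks stood at 90.93 and 100.9, or the 65.1 and 80.4 percentiles. These medians are over peaks, and TPT1 alone held 6 of the 13 shLacZ and 4 of the 16 shRRN3 past-end peaks.

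The genes whose mRNAs are classical 5′ TOP mRNAs were set beside the others. The 10 such genes were TPT1, EEF1A1, EEF1B2, EEF1D, EEF1G, EEF2, EIF3E, EIF3F, EIF3H and EIF4B. Of these, 2 had a peak at an annotated start in shLacZ (20.0%) and 7 in shRRN3 (70.0%). Of the 38 others 10 (26.3%) and 28 (73.7%) had one, against 9.28% and 28.2% of all protein-coding genes. Body peaks were listed for 6 of the 10 in shRRN3 (60%) and for 8 of the 38 others (21.1%), against 18.1% of all genes. However, 4 of the 6 (EEF1A1, EIF3E, EIF3F and EIF3H) have canonical starts over 1 kb inside their annotated span. Grouped by the promoters instead, 3 of the 11 genes with a pyrimidine run had a peak at an annotated start in shLacZ (27.3%) and 9 in shRRN3 (81.8%). Of the 28 without a run 8 (28.6%) and 20 (71.4%) had one, beside the same 9.28% and 28.2% of all genes. EEF1G is listed as a TOP gene but its RefSeq transcript starts with A. The 2 genes with a run and no start peak in shRRN3 were EEF1B2 and EIF3K.

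The 38 other translation genes, such as eIF2 kinases, poly(A)-binding proteins and ribosome rescue factors, had start peaks at 7 in shLacZ (18.4%, against 7.56% of all genes) and 15 in shRRN3 (39.5%, interval 24% to 56.6%, against 23.7%). Past-end peaks were listed for 1 of them in shLacZ (2.63%, against 1.6% of all genes) and 4 in shRRN3 (10.5%, against 5.84%). Their body peaks were as frequent as those of the 48 genes or more so, at 7 genes in shLacZ (18.4%, beside 12.5% of the 48) and 12 in shRRN3 (31.6%, beside 29.2%). Any peak was listed for 12 in shLacZ (31.6%, beside 29.2%) and 20 in shRRN3 (52.6%, beside 79.2%). PABPC1, which coats poly(A) tails, had start peaks of 181.92 and 388.09. DDX3X, a helicase that helps with structured leaders, had start peaks of 258.33 and 58.82 and a shRRN3 body peak of 419.87. EIF2AK4, the kinase that senses a lack of amino acids, had a start peak of 297.17 in shRRN3 only, and MKNK2, a kinase of eIF4E, had one of 64.9 in shLacZ only.

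Several of the genes have many processed copies elsewhere in the genome, to which reads could be misassigned. Of 169 annotated pseudogenes named after them, 49 of EEF1A1 and 15 of TPT1 among them, none had a peak in shLacZ and 1, EEF1A1P23, had one in shRRN3 (0.592%), against 0.282% and 0.834% of 15233 annotated pseudogenes.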

How the data were processed

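Pol II ChIP was carried out by the study with an ActiveMotif antibody and kit in shLacZ and shRRN3 SK-OV-3 cells, and libraries were sequenced on a BGISEQ instrument. The authors deposited 1 peak list per Pol II library, with the position, a name that carries the program MACS and a score for every peak. From a lowest value of 50 and a ceiling of 3100, the deposited score was read as 10 times −log10 of the peak p-value. The submitters' processing notes name hg38. The aligner, the program version, the threshold and the use of input as control are not given in the sources used here. The input libraries were not analysed here, and depth is unknown.

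Peaks on the primary chromosomes were assigned by midpoint to genes of GENCODE release 44. Of 4014 shLacZ and 14363 shRRN3 peaks, 3920 and 14322 were on these chromosomes. The canonical transcript was MANE Select or the Ensembl canonical one. Past-end windows were 10 kb long for 30 of the 48 genes, shorter for the others, and absent for EIF4A1, EIF4G1 and EIF6. Promoters came from RefSeq and were matched by symbol and canonical start; 39 of the 48 genes matched. The genes and lists were chosen with earlier results of these data known. Values were printed for genes with a past-end peak in either list, a start peak in 1 list only or 1 of the 10 highest start peaks in a list, and for TPT1, EEF1A1, EEF1B2, EEF1D, EEF1G, EEF2, EIF1, EIF4A1, EIF4E, EIF4EBP1, EIF4EBP2, EIF4G1, EIF5A and EIF6; other values named were chosen after they were seen. Alternatives were other start and end windows and definitions, a score of at least 100, and a shRRN3 list of its top 3920 peaks by score. The assignment code was tested on simulated peaks. Tools were matplotlib 3.10.9, scipy 1.17.1, pandas 2.3.3, numpy 2.4.6 and Python 3.11.15.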

Additional observations from a re-analysis of the deposited data

How the results depend on the processing

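Each list came from 1 library, so none of the counts has a replicate error, and no replicate could be left out. No paired analysis was possible because a single library stood for each hairpin. A score of at least 100 left start peaks in 6 genes in shLacZ (12.5%, against 1.64% of all genes). In shRRN3 it left them in 14 (29.2%, against 10.2%). Body peaks were left in 1 gene (2.08%, against 0.923%) in shLacZ and 8 (16.7%, against 6.33%) in shRRN3. Any peak was left in 9 (18.8%, against 2.72%) and 22 (45.8%, against 16.1%). With the shRRN3 list reduced to 3920 peaks, start peaks were left in 14 genes, body peaks in 8 and any peak in 22. Start peaks in shRRN3 only fell to 6 genes while those in shLacZ only came to 2, with no matching share of all genes counted. Both settings hold fewer peaks by construction. The past-end window not cut at other starts gave past-end peaks in 8 genes in shLacZ (16.7%, against 4.0% of all genes). In shRRN3 it gave them in 17 (35.4%, against 12.1%). With midpoints inside other protein-coding genes left out, 3 (6.25%, against 0.953%) and 6 (12.5%, against 3.69%) had one. The count of genes with a start peak in shLacZ only became 0 with any overlap of the start window and 0 with any annotated start. The other 25 recomputed counts stayed within 1.5 times the reported ones, among them start windows of 0.5 kb and 2 kb, a past-end window of 5 kb, and a window from the canonical end, which was added after the data were seen (6 and 11 genes). The unknown depth limits every absence of a peak, which says only that none was called.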
